A study of Homo sapiens with 4 samples.

Results

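The cytosolic ribosomal protein genes were examined in chromatin immunoprecipitation followed by sequencing (ChIP-seq) of untreated cells of a subclone of MDA-MB-231, a long-established human line from a triple-negative breast cancer, labelled wild type. The precipitated samples, labelled PD-L1, were made with an Abcam antibody against the HA tag in 2 biological replicates, and 2 input samples were labelled beside them. The sources used here do not say how cells came to carry the tag, the subclone is 1 derivative of the line, and no mock precipitation was analysed here, so recovery without the target cannot be told apart from binding. The members were the protein-coding genes of chromosomes 1 to 22 whose RefSeq symbol is RPL or RPS followed by a number and an optional letter or L, with RPLP0, RPLP1, RPLP2 and RPSA. This rule gave 78 genes of 19122 protein-coding genes, 47 of the large subunit and 31 of the small subunit. A gene was counted as marked when a deposited broad peak overlapped its span plus 1 kb on each side by at least 1 bp. PD-L1, the product of CD274, is best known as a cell-surface ligand of the T-cell receptor PD-1.

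Ribosomal proteins and ribosomal RNA make up the ribosome, whose small subunit decodes the message and whose large subunit joins the amino acids. Their genes are short, are transcribed at high rates in growing cells, and are spread over many chromosomes. Many of their transcripts open with a tract of pyrimidines, the TOP motif, through which translation follows the activity of the kinase mTOR, and many carry small nucleolar RNA (snoRNA) genes in their introns. The 78 genes had a median length of 4905 bp (772 to 27723 bp), against 24490.5 bp for all protein-coding genes, so a member offers less room for a peak than most genes do.

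The 250 bases before the transcript start are shown for members chosen to contrast starts with and without a peak. The sequences are from RefSeq (GRCh38.p14, whose main chromosomes share the coordinates of hg38). RPL17, RPS10 and RPL3 were the best-ranked members in which overlapping peaks of both replicates met the window from 250 bases before to 50 bases after the start, and RPL10L, RPL12 and RPL14 were the first by symbol with no peak there in either replicate. Each sequence runs 5′ to 3′ and stops at the last base before the transcript, and capitals mark every match, on either strand, to the 8 motifs whose shares are given with the promoters' base content.
RPL17, chr18:49492466-49492715, minus strand: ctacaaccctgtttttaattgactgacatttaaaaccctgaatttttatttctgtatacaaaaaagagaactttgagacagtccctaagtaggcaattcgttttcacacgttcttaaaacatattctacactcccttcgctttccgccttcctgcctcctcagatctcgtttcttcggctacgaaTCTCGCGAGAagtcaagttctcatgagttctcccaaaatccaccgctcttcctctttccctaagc
RPS10, chr6:34426070-34426319, minus strand: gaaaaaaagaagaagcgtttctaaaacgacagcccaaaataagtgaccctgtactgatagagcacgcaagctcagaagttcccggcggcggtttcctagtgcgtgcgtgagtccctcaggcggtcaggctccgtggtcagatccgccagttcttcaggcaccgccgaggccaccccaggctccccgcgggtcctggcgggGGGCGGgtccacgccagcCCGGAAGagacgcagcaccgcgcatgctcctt
RPL3, chr22:39319624-39319873, minus strand: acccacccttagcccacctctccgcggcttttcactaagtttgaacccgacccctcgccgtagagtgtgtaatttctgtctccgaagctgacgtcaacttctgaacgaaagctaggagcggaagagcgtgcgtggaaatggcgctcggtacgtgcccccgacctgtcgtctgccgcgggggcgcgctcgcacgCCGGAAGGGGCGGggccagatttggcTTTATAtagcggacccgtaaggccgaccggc
RPL10L, chr14:46651782-46652031, minus strand: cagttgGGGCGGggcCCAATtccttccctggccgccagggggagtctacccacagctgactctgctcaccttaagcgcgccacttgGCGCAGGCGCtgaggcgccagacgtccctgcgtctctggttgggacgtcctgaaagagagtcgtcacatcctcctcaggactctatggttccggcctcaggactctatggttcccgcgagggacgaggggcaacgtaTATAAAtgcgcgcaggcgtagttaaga
RPL12, chr9:127451407-127451656, minus strand: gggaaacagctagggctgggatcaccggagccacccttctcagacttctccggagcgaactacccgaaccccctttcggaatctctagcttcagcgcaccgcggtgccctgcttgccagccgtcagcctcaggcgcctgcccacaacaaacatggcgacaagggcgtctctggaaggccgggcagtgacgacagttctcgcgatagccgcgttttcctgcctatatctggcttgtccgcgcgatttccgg
RPL14, chr3:40457089-40457338, plus strand: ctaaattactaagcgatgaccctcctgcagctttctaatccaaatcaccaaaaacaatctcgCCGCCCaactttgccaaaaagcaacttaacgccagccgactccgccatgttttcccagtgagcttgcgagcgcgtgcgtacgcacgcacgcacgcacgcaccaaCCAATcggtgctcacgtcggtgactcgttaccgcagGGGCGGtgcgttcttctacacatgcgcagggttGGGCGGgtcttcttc
Of the promoters with a peak, that of RPL17 held a palindrome centred on CGCG, and those of RPS10 and RPL3 an ETS and an SP1 motif. The RPL3 promoter also held a TATA box on the opposite strand. Of those without a peak over the window, RPL10L held SP1, NFY, NRF1 and TATA motifs. RPL14 held 3 SP1 motifs and 1 NFY motif, and RPL12 held none. Both RPL12 and RPL14 did have a peak of replicate 1 within 1 kb of the start. Motifs thus stood in examples with and without a peak over the window.

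Nearly all ribosomal protein genes carried a peak in replicate 1, and about as many did as did not in replicate 2. In replicate 1, 73 of 78 members (93.6%, Wilson 95% interval 85.9% to 97.2%) were marked, against 82% of all protein-coding genes. In replicate 2, 40 of 78 (51.3%, 40.4% to 62.1%) were marked, against 65.9% of all protein-coding genes. The members thus stood above the background in one list and below it in the other. These intervals cover counting error over genes only, the 2 lists give no test between replicates, and no test was made between members and other genes, since genes are not replicates. Every member marked in replicate 2 was also marked in replicate 1, so 40 were marked in both, against 63.5% of all genes, and 33 members (42.3%) were marked in replicate 1 alone, against 18.4% of all genes. No member was marked in replicate 2 alone, against 2.43% of all genes. A shared region, that is, overlapping peaks of both replicates, was present in 36 members (46.2%), against 51.7% of all genes. This count rests on an overlap of 1 bp: where each peak had to cover 50% of the other, 7 members (8.97%) had one, against 27.9% of all genes, and 6 members (7.69%) had one when the 50% of each list with lower fold was left out, against 20.4%. Within 1 kb of either end of the gene, 72 members (92.3%) had a peak in replicate 1, against 71.4% of all genes. In replicate 2, 36 (46.2%) had one, against 38.3%. For members in the middle 50% of member lengths, the shares were 89.5% in replicate 1 and 42.1% in replicate 2. They were 71.2% and 41.7% for all genes of those lengths.

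The members were also set beside the 9929 protein-coding genes within their range of lengths. In replicate 1, 93.6% of members were marked, against 75.1% of these genes, and in replicate 2 51.3% were, against 56.2%. Peaks covered 22.6% of the members' windows in replicate 1 and 5.20% in replicate 2, against 20.2% and 6.89% for the genes within that range, whose median length was 9768 bp. In a closer match, the 38 members in the middle 50% of member lengths were set beside the 2104 protein-coding genes of those lengths, with a median of 5109 bp. There, 92.1% of members were marked in replicate 1, against 74.0% of these genes, and 47.4% in replicate 2, against 51.3%. The cover was 21.5% in replicate 1 and 3.84% in replicate 2 for these members, against 26.9% and 7.78%, so the members' cover in replicate 1 was above that of other genes in the wide range of lengths and below it in the narrow one. In the 500 kb on each side of the window, the median density around members was 127 peaks of replicate 1 per Mb and 64 of replicate 2, against 90 and 48 around all protein-coding genes and 115 and 62 around the 2104 genes of the middle lengths. It was 117 and 61 around mitochondrial ribosomal protein genes, 123 and 60 around proteasome genes, and 132 and 71 around genes of translation factors. Around the 40 members marked in replicate 2 it was 160.5 peaks of replicate 1 per Mb and 83.5 of replicate 2, against 84.5 and 47 around the 38 that were not marked there. The part of local density in the members' counts was not tested. With only the 50% of peaks of higher fold in each list, 70.5% of members were marked in replicate 1, against 68.6% of all genes, and 21.8% in replicate 2, against 46.2%.

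**Figure D1:**
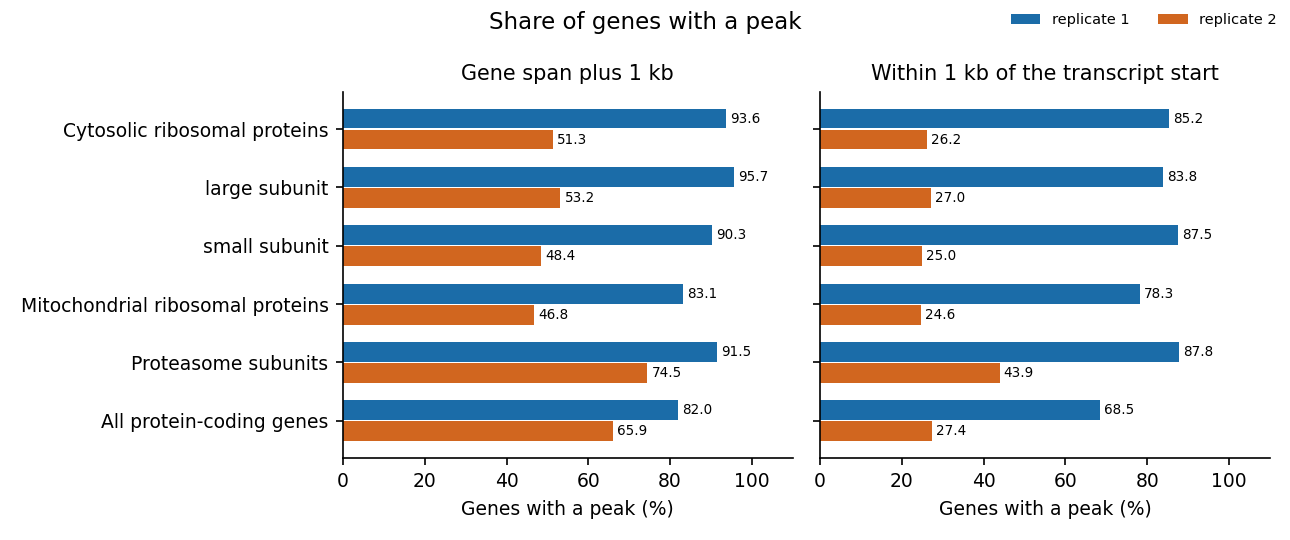
Share of genes with a peak (%) in replicate 1 (blue) and replicate 2 (orange), over the gene span plus 1 kb (left) and within 1 kb of the transcript start (right), for ribosomal protein genes, each subunit, mitochondrial ribosomal proteins, proteasome subunits and all protein-coding genes. Members stand at 93.6% and 51.3% over the span, against 82% and 65.9% for all genes.

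The margin around the gene mattered more in replicate 2 than in replicate 1. In replicate 1, 2 of 73 marked members, RPS3A and RPL41, had their peaks in the margin only, at 223 bp and 7 bp from the gene. In replicate 2 this held for 13 of 40, among them RPL26 at 939 bp, RPL41 at 938 bp and RPS7 at 904 bp. Just outside the margin in replicate 2 were RPL19 at 1195 bp, RPL29 at 1202 bp, RPL13 at 1289 bp and RPSA at 1342 bp. Without the margin, 71 members were marked in replicate 1 and 27 (34.6%) in replicate 2, against 79.8% and 62.1% of all genes.

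Peaks of replicate 1 gathered at the transcript starts of the members. A strand and start were listed for 61 of the 78 genes, and for 15100 protein-coding genes in all; the other 17, 4 of them on chromosome 8, did not enter the counts at starts. Within 1 kb of the start, 52 of 61 members (85.2%) had a peak in replicate 1, against 68.5% of all genes, and 16 (26.2%) in replicate 2, against 27.4%. Over the window from 250 bases before to 50 bases after the start, 43 members (70.5%) had a peak in replicate 1, against 53.2% of all genes, and 10 (16.4%) in replicate 2, against 13.8%. At the start itself, 65.6% of members lay under a peak of replicate 1, against 46.8% of all genes, and 9.84% lay under one of replicate 2, against 10.5%. For mitochondrial ribosomal protein genes, the shares of replicate 1 over this window and at the start itself were 75.4% and 65.2%. They were 82.9% and 73.2% for proteasome genes, 77.5% and 77.5% for ribosome assembly factors, and 69.8% and 62.8% for translation factors. The members' cover in replicate 1 was highest 100 bp inside the transcript, at 67.2%, and was 14.8% at 1 kb before the start and 21.3% at 1 kb after it. At those 2 positions all genes stood at 17.7% and 23.4%, so the members' share there was slightly below that of all genes. The members' share was above that of all genes over the start, and again at 2 kb and 5 kb to either side. At 2 kb after the start it was 22.95%, against 14.98%, and at 2 kb before the start 11.48%, against 10.51%. The higher share was thus not confined to the start.

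The members also stood above all genes within 1 kb of the transcript end in replicate 1, though not at the end itself. At the last base, 14.8% of members lay under a peak of replicate 1, against 15.6% of all genes. Within 1 kb of the end, 34 of 61 members (55.7%) had a peak in replicate 1, against 38.1% of all genes, and 13 (21.3%) in replicate 2, against 19.3%. Since members are short, a window at the end can lie close to the start of the same or the next gene. Among genes within the members' range of lengths, the shares at the end were 44.8% in replicate 1 and 22.5% in replicate 2.

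**Figure D2:**
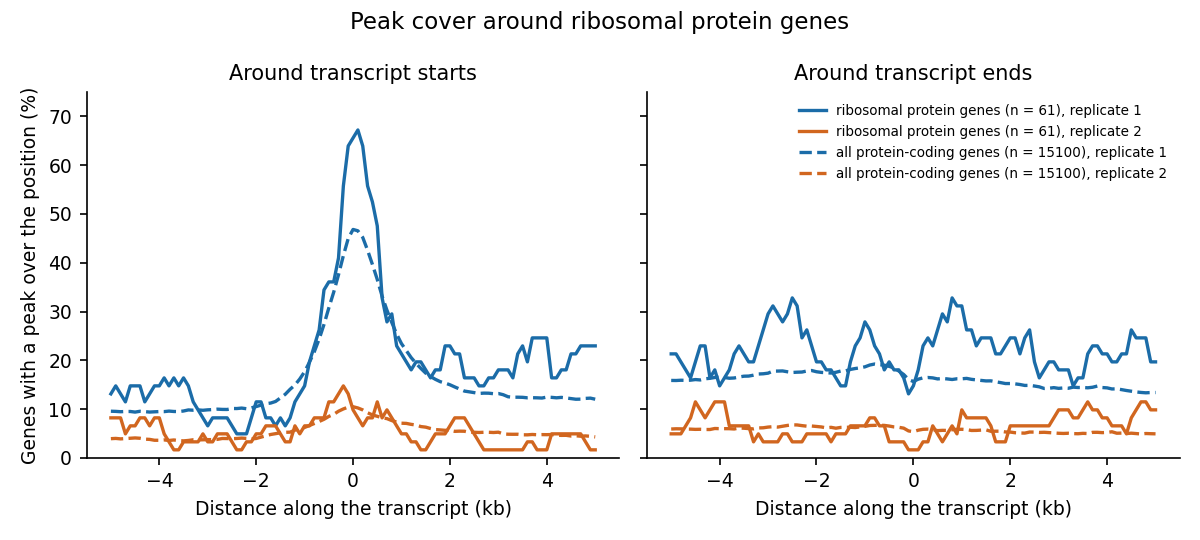
Share of genes (%) with a peak over each position, every 100 bp from 5 kb before to 5 kb after transcript starts (left) and ends (right), for 61 ribosomal protein genes (solid) and 15100 protein-coding genes (dashed), in replicate 1 (blue) and replicate 2 (orange). In replicate 1 the members reach 67.2% beside the start, against a highest value of 46.8% for all genes; in replicate 2 the lines lie close together.

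In 10 members, overlapping peaks of both replicates met the window at the start: RPL17, RPS10, RPL3, RPL22, RPS23, RPS12, RPL27, RPL18, RPS25 and RPLP0. No other member had a peak of replicate 2 in that window. Peaks of both replicates, overlapping or not, met it in 10 of 61 members and in 1546 of 15100 protein-coding genes. The meeting of window and peak does not always include the start base, since the peak of replicate 1 at RPL17 stopped just inside the transcript and that of replicate 2 at RPL3 lay 154 bp outside the gene. At RPS10, which encodes a protein of the head of the small subunit, the peak of replicate 1 (chr6:34424920-34426197) had a fold enrichment of 3.18 and that of replicate 2 (chr6:34425365-34426337) one of 2.50. At RPL3, a core protein near the peptidyl transferase centre, the peaks lay at chr22:39319319-39319892 (fold 3.30 in replicate 1) and chr22:39319777-39320138 (2.23 in replicate 2). At RPL17, part of the ring around the exit of the peptide tunnel, they lay at chr18:49491951-49492448 (2.94 in replicate 1) and chr18:49492326-49493279 (2.42 in replicate 2). RPL17 and RPS10 share their windows with the readthrough genes RPL17-C18orf32 and RPS10-NUDT3, so these peaks cannot be given to either gene of each pair.

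The fold of the members' peaks was close to that of peaks at other genes. The fold enrichment, a ratio over the caller's background given by the authors for each peak, had a median of 3.22 over the 139 peaks of replicate 1 in member windows, against 3.14 over the 101059 peaks in windows of all protein-coding genes. In replicate 2 the median was 2.23 over 53 peaks, against 2.24 over 54691. The median −log10 q was 2.08 in replicate 1, against 1.93, and 1.84 in replicate 2, against 1.79. A −log10 q of 3 was passed by 2 of the members' 139 peaks in replicate 1 and by 1 of 53 in replicate 2. Few peaks of either list reached such values. In replicate 1, 98.4% of all peaks lay below the lower of these 2, and in replicate 2, 97.7% lay below that peak. Of the members' peaks, 33.1% in replicate 1 overlapped the other list, against 30.5% of the peaks of all genes, and 83.0% in replicate 2 did, against 57.5%. Peaks of replicate 1 covered 22.6% of the members' windows, against 8.16% of those of all genes. The part of this cover in the overlaps was not tested, and no share matched for length was computed.

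The members of highest −log10 q differed between the lists. In replicate 1 they included RPL17 (3.09, at a fold of 4.12), RPL5 (3.08, 3.89), RPL27 (2.92, 3.66) and RPL15 (2.84, 3.42). In replicate 2 they were RPL22 (3.12, at a fold of 2.98), RPL35 (2.90, 2.76), RPS3 (2.66, with a highest fold of 2.30), RPLP2 (2.58, 2.61) and RPS10 (2.46, 2.50). No gene was in both sets of 5. The strongest peak of RPL17 in replicate 1 (chr18:49487396-49487571) lay 910 bp outside the gene, inside the margin, and did not overlap replicate 2. RPL5, with RPL11 and the 5S RNA, forms a particle that binds and inhibits the ubiquitin ligase MDM2; its peak of replicate 1 (chr1:92831453-92833025) had no counterpart, the nearest peak of replicate 2 being 79642 bp away. RPL22 was the member nearest to equal fold in both lists, with 3.03 in replicate 1 and 2.98 in replicate 2. Its standing within each list was unlike, since 34.6% of the peaks of replicate 1 and 97.3% of those of replicate 2 had a lower fold. Across the 40 members marked in both lists, the highest folds gave 0.195 for Spearman's rho and 0.20 for Pearson's r, as a description, since both lists share the same gene windows.

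Members with a shared region were ordered by their highest fold, ranked per list and averaged, and the first 9 were RPL35, RPLP2, RPL17, RPL38, RPS10, RPL39L, RPL3L, RPL3 and RPS24. RPL35, a protein at the tunnel exit, had a highest fold of 3.78 in replicate 1 and 2.76 in replicate 2, and its shared region (chr9:124859719-124862471) reached over the transcript start, with 97 bp common to both peaks. The peak of fold 3.78 was another one, 170 bp beyond the other end of the gene. RPLP2, an acidic protein of the stalk that recruits elongation factors, had 3.96 in replicate 1 and 2.61 in replicate 2; its shared region (chr11:811536-812480) lay inside the gene, away from the start, and had folds of 3.19 in replicate 1 and 2.61 in replicate 2. RPL38 had 3.61 in replicate 1 and 2.48 in replicate 2, with a shared region beyond the gene's end (chr17:74211094-74214616). RPS24 had the most peaks, 8 in replicate 1 and 3 in replicate 2, followed by RPS3 with 6 in replicate 1 and 3 in replicate 2. Both are among the longest members, at 22944 bp for RPS24 and 22785 bp for RPS3. Over all 78 members, Spearman's rho between length and number of peaks was 0.254 in replicate 1 and 0.116 in replicate 2, as a description.

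**Figure D3:**
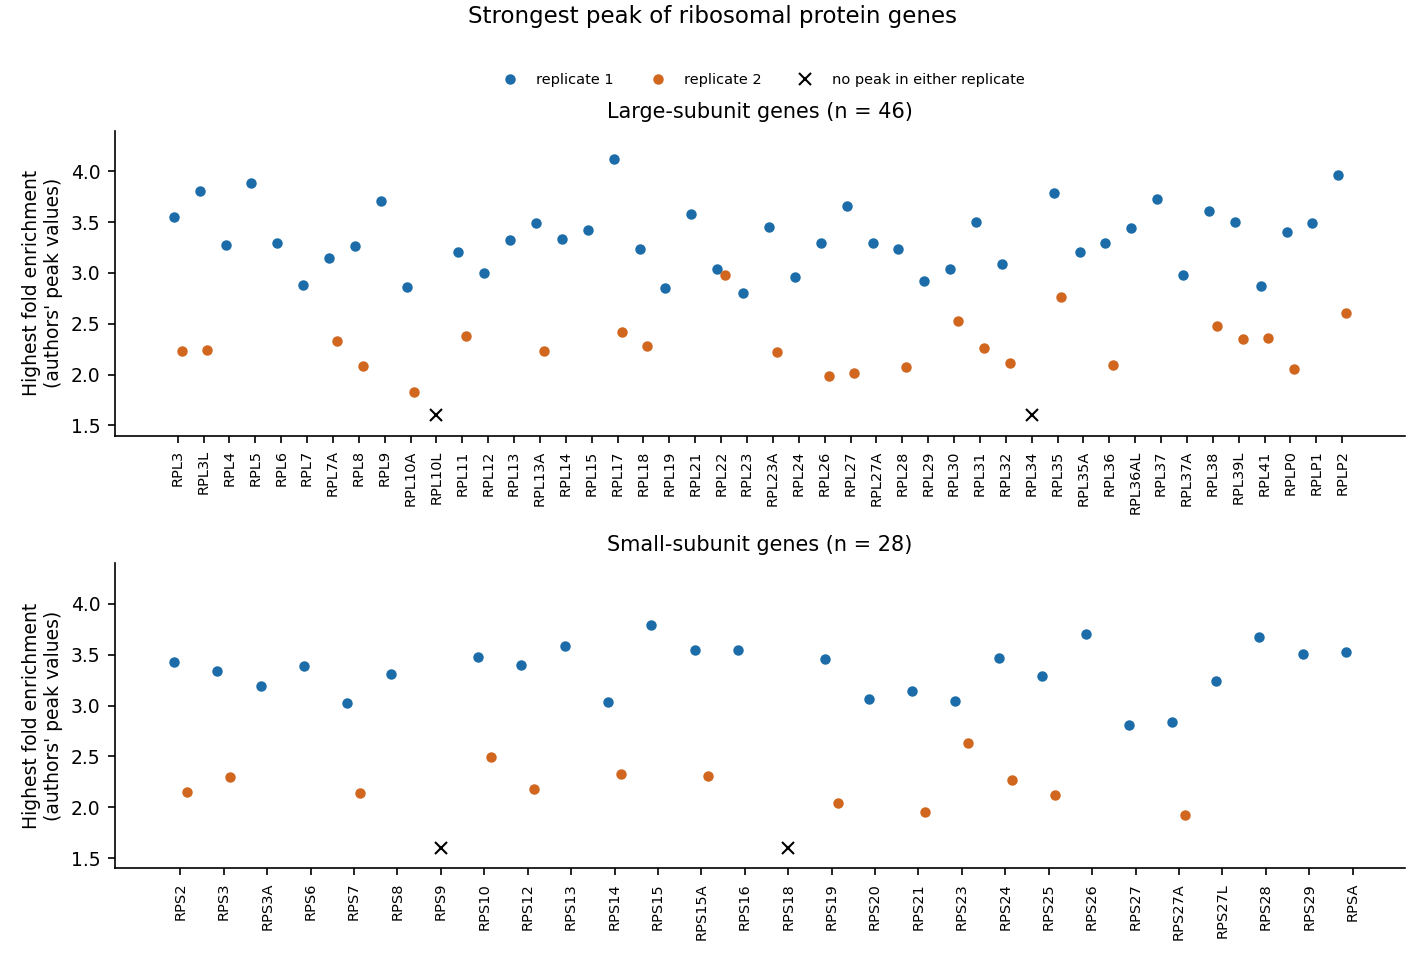
Highest fold enrichment (the authors' ratio per peak) of 74 of the 78 ribosomal protein genes in replicate 1 (blue) and replicate 2 (orange), large subunit above, small subunit below; a missing point means no peak, and crosses, set at the foot of the panel, mark genes with none in either. Folds run from 2.81 to 4.12 in replicate 1 and from 1.83 to 2.98 in replicate 2, and 4 of the genes drawn have no peak.

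The shares of marked genes in the large and the small subunit lay within each other's counting error. In replicate 1, 45 of 47 large-subunit genes (95.7%, Wilson 95% interval 85.8% to 98.8%) and 28 of 31 small-subunit genes (90.3%, 75.1% to 96.7%) had a peak, against 82% of all protein-coding genes. In replicate 2, 25 large-subunit genes (53.2%, 39.2% to 66.7%) and 15 small-subunit genes (48.4%, 32.0% to 65.2%) had one, against 65.9% of all. Shared regions were present in 23 large-subunit genes (48.9%) and 13 small-subunit genes (41.9%), against 51.7% of all genes. The intervals of the large and the small subunit overlap in both replicates for the share with a peak. No interval was computed for the other counts, and no test was made. At the start, a peak of replicate 1 lay within 1 kb in 31 of 37 large-subunit genes (83.8%) and in 21 of 24 small-subunit genes (87.5%), against 68.5% of all genes. A peak of replicate 2 lay there in 10 of 37 (27.0%) and 6 of 24 (25%), against 27.4%. Within 1 kb of the end, 23 of 37 large-subunit genes (62.2%) and 11 of 24 small-subunit genes (45.8%) had a peak of replicate 1, against 38.1% of all genes. In replicate 2 it was 8 of 37 (21.6%) and 5 of 24 (20.8%), against 19.3%. Peaks covered 23.4% of large-subunit windows and 21.4% of small-subunit windows in replicate 1, and 4.70% and 5.91% in replicate 2. The median of the highest fold was 3.30 for large-subunit and 3.42 for small-subunit genes in replicate 1, and 2.24 and 2.18 in replicate 2.

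The members were also grouped by place in the ribosome, beside the 82% of all protein-coding genes marked in replicate 1 and 65.9% in replicate 2. At the exit of the peptide tunnel, all 8 genes (RPL17, RPL19, RPL22, RPL23A, RPL26, RPL31, RPL35 and RPL38) were marked in replicate 1, 7 (87.5%) were marked in replicate 2, and 6 had a shared region. Of the 7 marks of replicate 2, 4 rested on the margin alone (RPL23A, RPL26, RPL35 and RPL38), and without the margin 3 of 8 (37.5%) were marked, against 62.1% of all genes. The exception in replicate 2 was RPL19, whose nearest peak was 1195 bp from the gene. Of the 4 genes of the stalk and its base, all were marked in replicate 1. RPLP0, the stalk's anchor, had folds of 3.40 in replicate 1 and 2.05 in replicate 2, and RPLP2 was marked in both as well. RPLP1 (3.49) and RPL12 (3.0) were marked in replicate 1 only. In the particle of the 5S RNA, RPL11 had 3.21 in replicate 1 and 2.38 in replicate 2, whereas RPL5 was marked in replicate 1 only. Among 14 genes of the head of the small subunit, 12 (85.7%) were marked in replicate 1 and 7 (50%) in replicate 2, each of the 7 with a shared region, and without the margin 6 were marked in replicate 2. Of 18 genes in which variants cause Diamond-Blackfan anaemia, an inherited failure of red cell production, 17 (94.4%) were marked in replicate 1, against 82% of all genes, and 10 (55.6%) in replicate 2, against 65.9%. Without the margin, 7 of the 18 were marked in replicate 2. With few genes to a group, these counts are descriptions, and nothing is particular to a group on them.

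A few members lay almost wholly under a peak. In replicate 1, 13 members had over 50% of their window covered, against 1 in replicate 2, and the median cover per member was 18.6% and 0.888%. The share of all genes with such cover was not computed, so these counts do not set the members apart. At the middle lengths, peaks of replicate 1 covered 21.5% of the members' windows, against 26.9% for genes of those lengths. RPS21, on chromosome 20, was covered over 100.0% of its window in replicate 1, by a single peak of 12845 bp (chr20:62386097-62398941), and over 57.4% in replicate 2. RPL18 had 92.5% in replicate 1 and 25.8% in replicate 2, and RPL8 had 92.0% and 19.1%. RPL10A had 47.0% in replicate 1 and 28.8% in replicate 2. Others were covered in replicate 1 and free of peaks in replicate 2, among them RPL29 (83.1% in replicate 1), RPL13 (72.4%) and RPS28 (69.1%). Chromosome 19 held the most members, with 11 of 12 marked in replicate 1, against 83.9% of all its genes, and 8 of 12 in replicate 2, against 70.8%. On chromosome 3, by contrast, all 8 members were marked in replicate 1 and 2 in replicate 2, against 90.3% and 74.9% of all its genes.

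**Figure D4:**
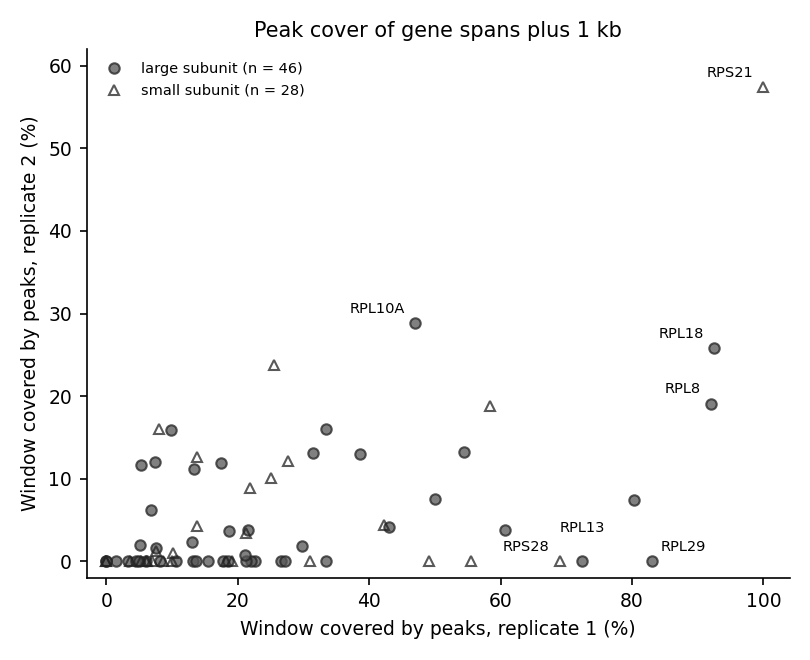
Share of a member's window (gene span plus 1 kb, %) covered by peaks in replicate 1 (horizontal) and replicate 2 (vertical), for 74 of the 78 genes, large-subunit (filled circles) and small-subunit genes (open triangles). RPS21 is at 100.0% and 57.4%, and RPL29, RPL13 and RPS28 lie on the horizontal axis.

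Among the 5 members without a peak in either replicate were RPL34, RPL10L, RPS9 and RPS18, and all 5 lay in long stretches free of peaks in both lists. RPS18, a protein of the head of the small subunit, sits in the major histocompatibility complex on chromosome 6, in a stretch of 4981.5 kb without a peak (chr6:28506966-33488464) that met 172 protein-coding genes. RPS9, which supports decoding accuracy, sits beside the leukocyte receptor genes on chromosome 19, in a stretch of 1059.8 kb (chr19:54024772-55084532) that met 43 protein-coding genes. RPL34 lay in a stretch of 222.3 kb on chromosome 4 (chr4:108447055-108669369) and RPL10L in one of 128.9 kb on chromosome 14 (chr14:46557958-46686844). The nearest peak of RPS9 was 176 kb away in replicate 1 and 187 kb in replicate 2, on a chromosome where 83.9% of genes were marked in replicate 1. These 5 members were at least 35 kb from any peak of either list, as were 8.19% of all protein-coding genes. Thus no member lacked a peak in both lists while lying next to one. Whether reads could be placed in these stretches was not tested.

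Base content at the starts differed with the marks of replicate 1. Over the 300 bases around the start, the 43 members with a peak of replicate 1 there had a median GC content of 60.3%, against 51.7% for the 18 without. In replicate 2 the median was 59.7% for the 10 members with a peak there, against 59.3% for the 51 without. The 61 members had a median of 59.3%, against 63% for all 15100 protein-coding genes. Their ratio of observed to expected CpG had a median of 0.907, against 0.767 for all genes. Among promoters of 50% to 60% GC, 17 of 22 members (77.3%) had a peak of replicate 1 over this window, against 54.7% of all genes. Among those of 60% to 70% GC, 21 of 27 members (77.8%) had one, against 69.6%. Below 50% GC it was 2 of 9 members (22.2%), against 15.7% of all genes, and at 70% or more 3 of 3, against 56.2%. The members' share was thus above that of all genes in each of these bands in replicate 1. In replicate 2 it was 4 of 22 (18.2%) against 20.4% at 50% to 60% GC, and 5 of 27 (18.5%) against 18.2% at 60% to 70%. The part of base content in the members' share was not tested.

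Several promoter motifs were more frequent in members than in all genes. A start with C and at least 4 further pyrimidines, the form of the TOP motif, was read in 40 of 61 members (65.6%), against 4.57% of all protein-coding genes with a listed start. It was in 29 of the 43 members with a peak of replicate 1 at the start and in 11 of the 18 without. Of the motifs searched on both strands of the 300 bases, CCGGAAG, bound by ETS factors, was in 34.4% of members, against 14.4% of all, and GCCATC, the core of the YY1 motif, in 24.6%, against 13.3%. The CGCG palindrome, printed in capitals in RPL17, was in 4 members (6.56%), against 0.675% of all. Others stood near the level of all genes: GGGCGG of SP1 (55.7%, against 58.9%), CCAAT of NFY (36.1%, against 36.0%), TATAAA, the TATA box (9.84%, against 9.71%), and the NRF1 motif (13.1%, against 12.1%). The E-box CACGTG was in 4.92%, against 8.77%. GCCATC was in 14 of the 43 members with a peak of replicate 1 at the start and in 1 of the 18 without, whereas CCGGAAG was in 14 of the 43 and in 7 of the 18. CCAAT was in 18 of 37 large-subunit and 4 of 24 small-subunit genes. A match is a string of letters and not a bound site, and in RPL3 the ETS and SP1 motifs stand side by side without overlap.

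Other gene groups of protein production and turnover were set beside the members. The mitochondrial ribosomal proteins are encoded by nuclear genes and serve the ribosome of the mitochondrion. Of 77 such genes, 83.1% were marked in replicate 1 and 46.8% in replicate 2. Within 1 kb of the start the members had 85.2% and 26.2%, against 78.3% and 24.6% of these genes. Genes of the proteasome, the complex that degrades ubiquitin-tagged proteins, were marked in 43 of 47 cases (91.5%) in replicate 1 and 35 of 47 (74.5%) in replicate 2, at a median length of 13646 bp. At the start, where length plays no part in the window, proteasome genes had 87.8% in replicate 1 and 43.9% in replicate 2. Initiation and elongation factors of translation had 47 of 52 genes marked in replicate 1 and 31 in replicate 2. Ribosome assembly factors had 38 of 44 in replicate 1 and 27 in replicate 2, and other genes whose messages carry the TOP motif had 18 of 19 in replicate 1 and 10 in replicate 2. Of all protein-coding genes, 82% were marked in replicate 1 and 65.9% in replicate 2. These differences between groups were not tested.

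A ribosomal protein gene that the naming rule leaves out and copies of ribosomal protein genes gave mixed values. FAU, which encodes a ubiquitin-like protein fused to a small-subunit protein, had no peak, the nearest being 2479 bp away in replicate 1 and 2617 bp in replicate 2. Of the paralog copies within the rule, RPL3L, a muscle form of RPL3, had 3.80 in replicate 1 and 2.24 in replicate 2, and RPL39L, a testis form of RPL39, had 3.50 and 2.35. RPL36AL (3.44) and RPS27L (3.24), a p53 target, were marked in replicate 1 only, and RPL10L, a testis copy of RPL10, in neither. RPL7L1, RPL22L1 and RPL26L1, whose names end in L1 and fall outside the rule as applied here, were all marked in replicate 1, and RPL7L1 and RPL26L1 in replicate 2 as well. Members with a snoRNA gene inside were marked in 27 of 27 cases in replicate 1 and 14 of 27 (51.9%) in replicate 2. For members without one it was 46 of 51 (90.2%) and 26 of 51 (51.0%), and for all protein-coding genes 82% and 65.9%. Of 1892 listed pseudogenes of ribosomal proteins, mostly short copies of the messages with a median length of 536 bp, 14.7% were marked in replicate 1 and 9.41% in replicate 2, and away from protein-coding genes (1128 of them) 14.6% and 10.0%. Their windows are shorter than those of the members, so these shares are given side by side only.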

How the data were processed

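Samples were labelled in groups, PD-L1 ChIP and input, with 2 replicates each; 1 list of broad peaks per replicate was analysed. The submitters' processing notes name hg38, Bowtie2 2.2.9 and MACS2 2.1.1, with no role; no source used here gives a threshold. In the deposited lists, column 5 is a score, column 7 the fold enrichment (a ratio), column 8 the −log10 p-value and column 9 the −log10 q-value, by the authors' peak caller; the score was not used. Reads were not used here, so depth is unknown. Peaks of replicate 2 have Merge in their names; nothing in the sources explains it, nor says whether the lists are independent.

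Peaks of chromosomes 1 to 22 (166313 in replicate 1 and 93106 in replicate 2) were intersected with gene spans plus 1 kb from RefSeq (GRCh38.p14) with Python 3.11.15, pandas 2.3.3, numpy 2.4.6, scipy 1.17.1 and matplotlib 3.10.9. Where stated, starts and 300-base windows came from the RefSeq promoter table, in which starts equalled the gene's end for 58 of 61 members. Intersection was tested on simulated peaks. Members, gene lists and motifs were chosen with earlier results of these data known. Named members were the 10 best ranked by fold, the 5 of highest −log10 q per list, those with most peaks or cover, those without peaks, and the lists for stalk, 5S particle and paralog copies. Some genes these rules select are not reported here, though all members are counted. Further members are named beside a count after their values were seen. No test was run: genes are not replicates, and there is 1 list per replicate. Alternatives were peaks with −log10 q from 2 upward, the 50% of higher fold, equal numbers of peaks, peak centres, other windows, 50% reciprocal overlap, other members, and each replicate alone.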

Additional observations from a re-analysis of the deposited data

How the results depend on the processing

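Of the alternative counts, 68 stayed within 1.5 times the reported count and 33 did not. Some of these were fixed in advance: those of replicate 2 with equal numbers of peaks, and those from 1 replicate alone. The counts of replicate 1 over gene spans and gene-end windows moved past 1.5 times only when members with another gene in the window were left out. That leaves 43 genes, of which 39 were marked in replicate 1 and 20 in replicate 2 and in both, 17 had a shared region, 39 and 17 had a peak in a gene-end window, and 28 and 7 within 1 kb of the start; by subunit 21 large and 18 small were marked in replicate 1, and 12 and 8 in replicate 2. There are fewer members to count, and the share in replicate 1 was 90.7%. With a −log10 q of at least 2, replicate 2 marked 17 members (9 large, 8 small), 15 in a gene-end window and 8 near the start; 14 members were marked in both, 11 had a shared region, and 34 had a peak of replicate 1 near the start. With the peaks of higher fold these counts were 17 (11 large, 6 small), 15, 7, 12, 6 and 32. At a −log10 q of at least 2, 21.8% of members and 39.4% of all genes were marked in replicate 2. In replicate 1 it was 73.1% and 64.6%. With the peaks of higher fold it was 21.8% and 46.2% in replicate 2, and 70.5% and 68.6% in replicate 1. Reciprocal overlap left 7 shared regions. Without the margin 16 large-subunit genes were marked in replicate 2, and with windows of 5 kb 35 members had a peak of replicate 2 near the start. From 1 replicate alone, neither a mark in both lists nor a shared region can be counted. The members marked in the list kept, 73 in replicate 1 or 40 in replicate 2, were entered in place of each. The counts near transcript starts and their alternatives were added after seeing the data, as were the counts of the lists by place and disease without the margin and the shares of all genes with a shared region under other overlaps. In replicate 2 the members' share was below that of all genes in each of the 6 alternatives in which both were computed, and in replicate 1 above it. For replicate 2, equal numbers of peaks could not differ from the main result, since its list was kept whole. None of the 6 alternatives matched gene length. At the middle lengths, replicate 2 marked 47.4% of members, against 51.3% of genes of those lengths. In gene-end windows the members' share in replicate 2 was above that of all genes, at 46.2% against 38.3%. At the middle lengths this share was 42.1% for members, against 41.7% of genes of those lengths. With equal numbers of peaks, 82.1% of members and 71.8% of all genes were marked in replicate 1. No paired analysis was possible because the results come from no test.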
